A study of Saccharomyces cerevisiae with 26 samples.

Results

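The 8 genes of heme synthesis in *Saccharomyces cerevisiae* (HEM1, HEM2, HEM3, HEM4, HEM12, HEM13, HEM14 and HEM15) and HAP1, the gene of a heme-responsive transcription factor, were chosen by their identifiers from the 6692 open reading frames of the count table. All 9 were read in 26 messenger RNA libraries of 8 combinations of strain and medium, and all 9 passed the filter on low counts in every comparison. The study placed a cysteine at position 110 of histone H3, where yeast has alanine, and asked how this affects copper and iron homeostasis in cells that lack the metallothionein Cup1 or the first enzyme of glutathione synthesis. In SCEG, an oxidative medium in which ethanol and glycerol replace glucose, the strains were H3A110Ccup1F8*, cup1F8*, H3A110Cgsh1Δ, gsh1Δ, H3A110C and WT. In SC, the fermentative medium with glucose, they were H3A110C and WT.

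H3A110C carries the substitution in both histone H3 genes, HHT1 and HHT2, under their own promoters. cup1F8* has a stop codon in every copy of CUP1. gsh1Δ has GSH1 replaced by KanMX6 and cannot grow in SCEG without added glutathione, nor can H3A110Cgsh1Δ. The amount given to the cultures for RNA, and whether the other strains received it, is not given in the sources used here, so the deletion and the supplement cannot be told apart. The strains descend from BY4741, of the S288C background (MATa, with his3, leu2, met15 and ura3 deletions that WT carries too). The strains with cup1F8* had 4 libraries each and the others 3.

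Heme is made by a chain of enzymes that begins and ends in the mitochondrion. Hem1 (5-aminolevulinate synthase) makes the first committed precursor, Hem2 joins pairs of it, and Hem3, Hem4 and Hem12 build and trim the ring in the cytosol. Hem13 needs molecular oxygen, Hem14 oxidizes the ring to protoporphyrin, and Hem15 (ferrochelatase) inserts iron. Heme in turn activates Hap1, which raises genes of respiration and the repressor gene ROX1. Rox1 holds down hypoxic genes, of which HEM13 is a classic case. In iron limitation, Tis11 (also called Cth2) binds AU-rich elements in messenger RNAs of iron-using pathways, heme synthesis among them, and promotes their decay.

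In the R64 assembly, the build used by the authors, each gene is 1 coding exon, and the coordinates below are those of the coding sequence. HEM1 (YDR232W) is at chrIV:927452-929098, HEM3 (YDL205C) at chrIV:92762-93745 on the minus strand, HEM12 (YDR047W) at chrIV:551860-552948 and HEM13 (YDR044W) at chrIV:546642-547628. HEM2 (YGL040C) is at chrVII:419527-420555 on the minus strand and HEM14 (YER014W) at chrV:182600-184219. HEM4 (YOR278W) is at chrXV:842817-843644, HEM15 (YOR176W) at chrXV:662401-663582 and HAP1 (YLR256W) at chrXII:646415-650923. HEM14 overlaps the antisense gene BUD25, and the alignment used strand. BUD25 had 18 counts over all 26 libraries.

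Each library had between 2917138 and 12305863 counted reads, with 9428849 to 12305863 in SC, 2917138 to 6013267 in SCEG without cup1F8*, and 7579367 to 10133258 with it. A count of 3 in the shallowest library equals 1.03 CPM (counts scaled to a common library size), and the lowest group mean of the 9 genes was 26.7 CPM (HEM4 in gsh1Δ). GSH1 had 0 counts in all 6 libraries of both gsh1Δ strains and 479 to 2013 in the other SCEG libraries. URA3 and LEU2 had at most 4 counts in any library, and MET15 at most 6. No SCEG library, that of WT included, held a read of CUP1-1 or CUP1-2 (0 counts), whereas SC libraries held 478 to 1236 and 211 to 685, so they check no cup1F8* label. The sources used here do not say whether the libraries of both media were counted with the same annotation and settings, and this doubt bears on every comparison of SCEG with SC. The MATa markers summed to between 246 and 1749 CPM and the MATalpha markers to between 6.55 and 33.7 CPM. The SC columns carry letters A to C, and library B of each strain stood apart (chi-square per gene of 104 to 150 against the others, which differed by 3.80 and 9.94), as did replicate 2 of H3A110Cgsh1Δ (42.2 and 23.1, against 5.75). The index suffixes in the labels repeat between the SC libraries, the SCEG libraries without cup1F8* and those with it, and identifiers outside the genome annotation held 0.119% to 0.162%, 0.244% to 0.304% and 0.415% to 0.463% of counts in these sets. Medium, and the presence of cup1F8* against WT or H3A110C, therefore cannot be told apart from the set, while H3A110Ccup1F8* against cup1F8* lies within 1 set.

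Levels are given in CPM normalized by the TMM method of edgeR over all libraries, with the SD. To compare genes, the CPM were divided by the coding length. In WT in SCEG, HEM2 had the highest level per kilobase (289 ± 4.24 CPM per kb, SD, n = 3), followed by HEM1 (268 ± 29.4), HEM12 and HEM3. HEM14 (23.6 ± 1.62 CPM per kb) and HEM4 (43.1 ± 4.29) had the lowest. Over the 8 groups, HEM15 spanned the widest range of mean CPM, 4.35-fold, followed by HEM13 with 3.74-fold. HEM12 spanned 1.15-fold, and the libraries of every 2 neighbours in its order overlapped. HEM1 and HEM2 stood highest in H3A110C and WT in SCEG, HEM13 in SC, and HAP1 in cup1F8* and gsh1Δ.

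**Figure D1:**
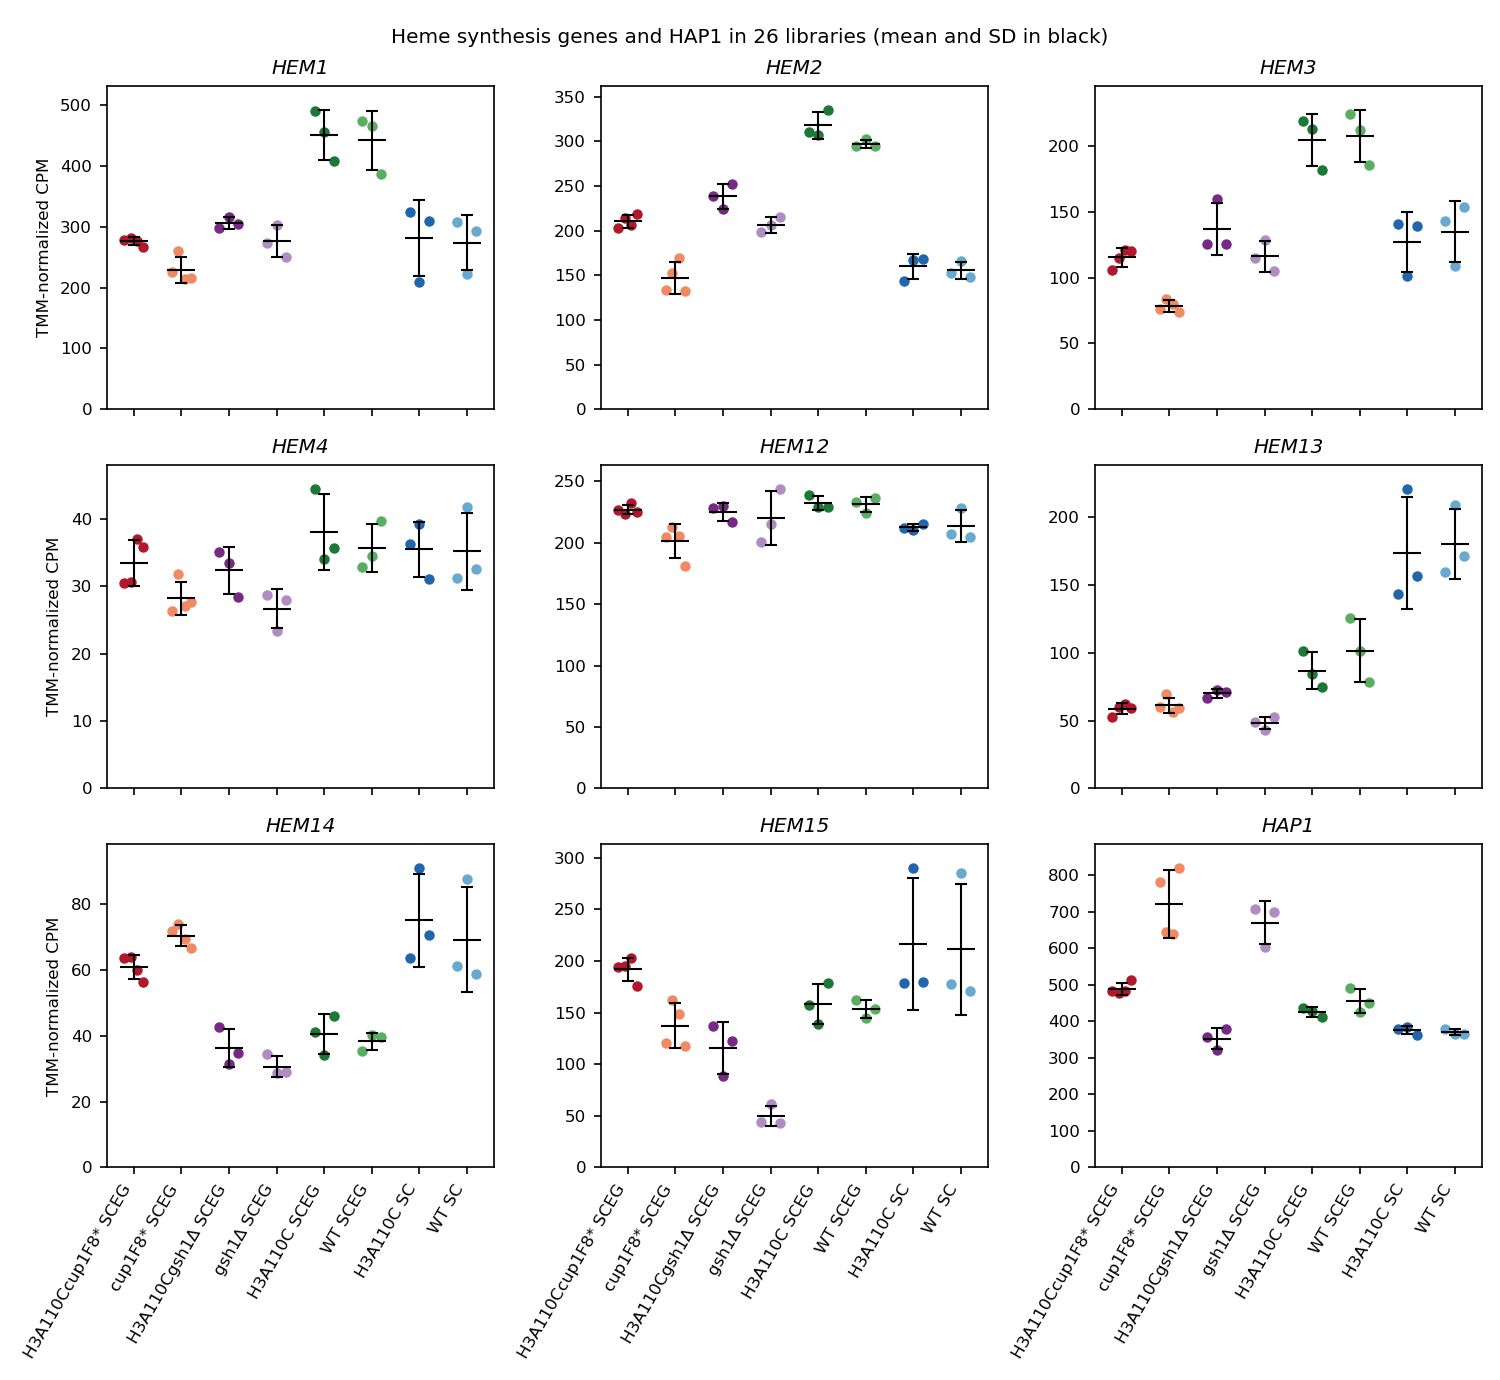
TMM-normalized CPM of each gene (y axis) in the 8 groups (x axis). Points are libraries, and black bars give the mean and SD (n = 4 for the strains with cup1F8*, n = 3 for the others). HEM15 was lowest in gsh1Δ, where no library passed 61 CPM, HAP1 was highest in cup1F8* and gsh1Δ, and HEM12 stayed between group means of 201 and 232 CPM.

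Because Tis11 binds UAUUUAU in RNA, the letters TATTTAT were searched on the sense strand in the 250 bases after each stop codon, in the R64 assembly (the build of the authors' alignment). All 9 genes held at least 1 match, against 15.5% of 6006 genes. HEM1, HEM13 and HEM15 held 3 (0.716% of genes hold 3 or more), HEM2, HEM4 and HEM12 held 2 (2.70% hold 2 or more), and HEM3, HEM14 and HAP1 held 1. The matches of HEM1, HEM2, HEM3, HEM13 and HEM15, which had the largest log2 fold changes of the HEM genes between any 2 groups compared, and the single one of HAP1, are shown with the 7 letters in capitals:
HEM1, chrIV:929193-929217 (+ strand): ttttattctTATTTATgtatgatac
HEM1, chrIV:929230-929254 (+ strand): tctcttaatTATTTATttatttaac
HEM1, chrIV:929234-929258 (+ strand): ttaattattTATTTATttaactaac
HEM2, chrVII:419354-419378 (- strand): cctaatgagTATTTATgtagtagta
HEM2, chrVII:419333-419357 (- strand): agtacgtaaTATTTATacacggaag
HEM3, chrIV:92644-92668 (- strand): tctttcagtTATTTATttccctctc
HEM13, chrIV:547688-547712 (+ strand): tcgaccactTATTTATacatttttt
HEM13, chrIV:547708-547732 (+ strand): ttttttatcTATTTATtatacctcc
HEM13, chrIV:547791-547815 (+ strand): attgcgtccTATTTATgatgcaagt
HEM15, chrXV:663617-663641 (+ strand): atattctctTATTTATtaattgagg
HEM15, chrXV:663638-663662 (+ strand): gaggttgcgTATTTATgttttcttt
HEM15, chrXV:663673-663697 (+ strand): atatatcatTATTTATtgcatttta
HAP1, chrXII:651000-651024 (+ strand): tgataataaTATTTATagaattgtg
The last pair of matches of HEM1 overlap. The match of HAP1 lies 86 bases after its stop codon, within a long terminal repeat of the Ty1 element at chrXII:650824-656743. That element, present in the S288C reference, begins inside the annotated frame and supplies its last 100 bases, so 98.8% of the 50-base windows of HAP1 are unique in the genome, against 100% for the 8 HEM genes. Only messenger RNA was read, so the activity of the Hap1 protein made from this frame was not measured. The annotated frame ends in the element, and whether its protein works as a heme regulator in these strains was not tested. All HAP1 values here are RNA levels and not Hap1 activity. A match is a description of the letters and not a bound site.

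**Figure D2:**
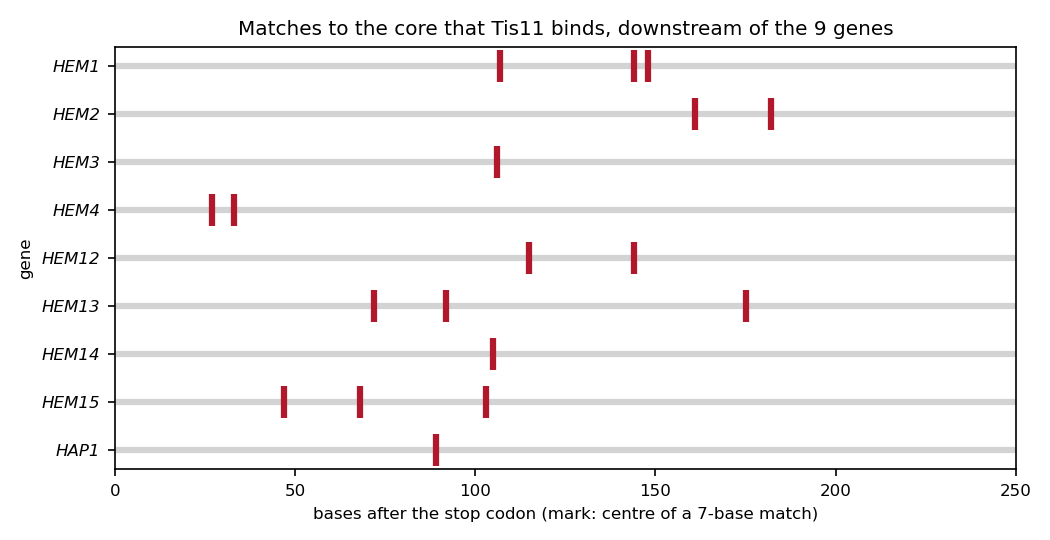
Position of each TATTTAT match (red mark) in the 250 bases after the stop codon (x axis, in bases) of the 9 genes (y axis). HEM15 holds 3 matches, the first 44 bases after the stop codon, and HEM3, HEM14 and HAP1 hold 1 each.

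The promoters were searched on both strands from 250 bases before the start codon to 50 bases into the gene. CCAAT, the core bound by Hap2/3/4/5, was present in 5 of the 9 (HEM2, HEM3, HEM4, HEM13 and HEM14), against 43.2% of 6006 promoters. ATTGTT, the core bound by Rox1, was present in 5 (HEM3, HEM13, HEM14, HEM15 and HAP1), against 35.3%. The Hap1 consensus, CGG triplets around TA, was in none of the 9, against 0.133% of promoters. TGCACCC, the core bound by the iron regulator Aft1, was in HEM1 alone of the 9, against 1.28%. The promoter of HEM1 is shown for TGCACCC, that of HEM13 as the classic Rox1 case, that of HEM3 as another that holds both CCAAT and ATTGTT, and that of HAP1 as the regulator. Capitals mark these matches (ATTGG and AACAAT are CCAAT and ATTGTT on the other strand):
HEM1, chrIV:927202-927501 (+ strand): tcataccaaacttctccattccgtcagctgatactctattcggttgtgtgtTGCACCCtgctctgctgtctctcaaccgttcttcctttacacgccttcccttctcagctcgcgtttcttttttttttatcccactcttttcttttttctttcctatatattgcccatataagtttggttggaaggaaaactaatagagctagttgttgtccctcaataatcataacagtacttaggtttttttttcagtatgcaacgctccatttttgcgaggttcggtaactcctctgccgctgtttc
HEM3, chrIV:93696-93995 (- strand): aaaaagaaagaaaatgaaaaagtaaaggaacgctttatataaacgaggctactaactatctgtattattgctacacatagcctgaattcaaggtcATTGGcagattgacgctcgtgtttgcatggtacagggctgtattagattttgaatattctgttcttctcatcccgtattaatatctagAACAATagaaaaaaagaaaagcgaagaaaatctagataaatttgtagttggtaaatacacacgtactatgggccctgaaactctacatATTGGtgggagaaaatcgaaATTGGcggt
HEM13, chrIV:546392-546691 (+ strand): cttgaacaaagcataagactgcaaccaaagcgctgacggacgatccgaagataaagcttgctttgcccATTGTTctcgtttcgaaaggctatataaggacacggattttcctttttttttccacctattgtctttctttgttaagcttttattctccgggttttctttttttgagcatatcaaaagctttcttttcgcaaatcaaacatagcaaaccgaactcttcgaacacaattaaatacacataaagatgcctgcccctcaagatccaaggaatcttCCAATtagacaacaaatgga
HAP1, chrXII:646165-646464 (+ strand): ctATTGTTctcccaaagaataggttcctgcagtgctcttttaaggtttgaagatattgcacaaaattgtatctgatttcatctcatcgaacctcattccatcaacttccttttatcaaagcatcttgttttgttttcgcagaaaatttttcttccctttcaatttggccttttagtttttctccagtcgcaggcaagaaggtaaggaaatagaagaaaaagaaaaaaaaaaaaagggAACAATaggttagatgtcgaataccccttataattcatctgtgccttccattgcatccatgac
In HEM13 and in HAP1 the ATTGTT nearest the left end is followed by ctc. In HEM13 it lies 182 to 177 bases before the start codon, and the CCAAT of HEM13 lies within the coding sequence.

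The first comparison asked what growth on ethanol and glycerol did to these genes. HEM1, HEM2, HEM3 and HAP1 were higher in SCEG than in SC in both strains, and HEM13 and HEM14 were lower. In each strain 6 of 9 genes passed the test (a quasi-likelihood F test in edgeR, with p-values adjusted by Benjamini and Hochberg's method across every gene tested, and a threshold of 0.05), 4 higher and 2 lower. The share among all tested genes was 50.9% in WT (25.6% higher, 25.3% lower) and 47.2% in H3A110C (23.8% higher, 23.4% lower), so that the count by itself is near the background. The libraries did not overlap between the media for 7 of the 9 in WT (60.7% of all genes) and 8 in H3A110C (58.9%).

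HEM2, which makes porphobilinogen, rose most. It had 295, 302 and 295 CPM in WT in SCEG, against 152, 166 and 148 CPM in WT in SC. The media did not overlap. Its log2 fold change was 0.99 (SE 0.0842, adjusted p = 0.000158) in WT and 1.06 (SE 0.102, adjusted p = 0.000296) in H3A110C.

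HEM1 averaged 442 ± 48.5 CPM in WT in SCEG and 274 ± 45.8 CPM in WT in SC (SD, n = 3 each), with a log2 fold change of 0.74 (SE 0.152, edgeR adjusted p = 0.00623). HEM3, the porphobilinogen deaminase, averaged 208 ± 19.8 and 135 ± 23.4 CPM, a log2 fold change of 0.67 (SE 0.15, edgeR adjusted p = 0.00897). In H3A110C the log2 fold changes were 0.75 for both, and in both strains every SCEG library lay above every SC library. HAP1 had a log2 fold change of 0.35 (SE 0.0846, adjusted p = 0.012) in WT and 0.25 (SE 0.0818, adjusted p = 0.0445) in H3A110C. In WT it did not pass without library C of SC (adjusted p = 0.0503). In H3A110C it did not pass without any 1 library other than B of SC (adjusted p between 0.12 and 0.193), nor with DESeq2's size factors (adjusted p = 0.0669). It also did not pass there with no filter on low counts (adjusted p = 0.0616) or with all libraries in 1 fit (0.0934). The call of HAP1 in H3A110C thus held in 5 of 13 alternatives.

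HEM13, the oxygen-dependent oxidase, had 125, 101 and 78.4 CPM in WT in SCEG, against 160, 209 and 172 CPM in WT in SC. Its log2 fold change was -0.77 (SE 0.19, edgeR adjusted p = 0.0132), and -0.94 (SE 0.195, adjusted p = 0.0076) in H3A110C. HEM14 had 35.3, 40.2 and 39.4 CPM in WT in SCEG, against 61.2, 87.5 and 58.7 CPM in WT in SC, and fell by 0.80 on the log2 scale (SE 0.179, adjusted p = 0.00914). For both genes library B was the highest in SC. No SCEG library reached an SC library. Without the B libraries the log2 fold changes in WT were -0.65 for HEM13 and -0.60 for HEM14, and both still passed.

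HEM15 had 162, 145 and 154 CPM in WT in SCEG, against 178, 285 and 171 CPM in WT in SC, where the high value was library B. Its log2 fold change of -0.41 (SE 0.202, edgeR adjusted p = 0.137) did not pass, and was -0.14 without library B. HEM4, the uroporphyrinogen synthase, and HEM12 had log2 fold changes of 0.07 and 0.17 in WT (adjusted p = 0.728 and 0.136). HEM12 passed at 0.21 without library B (adjusted p = 0.03).

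The wider set of heme genes was read from the same fits. Of 11 heme-activated genes, 7 stood higher in SCEG and 1 lower in WT (median log2 fold change 1.55, against 0.0039 over all genes, of which 25.6% were higher and 25.3% lower). CYC1, the main cytochrome c, rose most among them (2.92), and HMG1, a sterol synthesis gene, fell by 0.99. Of 5 hypoxic genes that Rox1 represses, 4 were lower in WT and 5 in H3A110C, 0 were higher in either, and COX5B, a cytochrome c oxidase subunit, fell most in WT (-2.81). ANB1, a hypoxic translation factor gene, had means of 1.38 ± 0.995 CPM in SCEG and 3.07 ± 1.75 CPM in SC in WT (log2 fold change -1.02, adjusted p = 0.209, n = 3 each, edgeR). Of 6 regulators 3 were higher and 0 lower, with ROX1 at 1.91 and HAP4, the limiting subunit of the Hap2/3/4/5 complex, at 1.59. Of 6 heme proteins 3 were higher, most of all the peroxisomal catalase CTA1 (4.74), and 2 lower, most of all CYB5 (-0.95). Of 10 genes of heme use and turnover 3 were higher, led by PUG1, a protoporphyrin transporter (1.74), and 1 lower, DAP1 (-0.34). The heme oxygenase HMX1 was at 1.02 (adjusted p = 0.00264).

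The substitution in histone H3 alone was compared in both media. Of the 9 genes, 0 passed in SC (background 0.0174%) and 0 in SCEG (0.0353%) in edgeR's quasi-likelihood test. None had an unadjusted p below 0.05, where 24 of 5737 genes did in SC and 340 of 5671 in SCEG. DESeq2 called 0 in either medium. The SC fit did not use the letters that pair its libraries, so the absence of calls there says little about small effects. With the letter as a block 0 of the 9 passed as well. The log2 fold changes lay between -0.08 and 0.13 in SC and between -0.23 (HEM13) and 0.10 in SCEG. In SC the libraries of all 9 genes overlapped between the strains (2.41% of all genes did not). In SCEG those of HEM2 did not (311, 307 and 335 CPM in H3A110C, against 295, 302 and 295 CPM in WT). Non-overlap was found for 10.4% of all genes in that comparison. None of the other heme genes described above that could be tested passed in either medium, and the effect of H3A110C did not pass a test of difference between the media for any of the 9 genes (0% of all genes, with 0 members and 112 genes at an unadjusted p below 0.05, and 0 members called by DESeq2).

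The next comparison asked what the loss of GSH1 did. HEM1, HEM2, HEM3, HEM13 and HEM15, the genes of the first 3 enzymes, the oxidase Hem13 and the ferrochelatase, were lower in gsh1Δ than in WT, and HAP1 was higher. Of the 9 genes 6 passed (25.3% of all genes did), 5 lower (12.8% of all genes were) and 1 higher (12.5%). Without replicate 1 of gsh1Δ the share of all genes was 15.8%. The 8 HEM genes had a median log2 fold change of -0.59, against 0.02 over all genes. For 8 of the 9 genes no gsh1Δ library overlapped a WT library (42.3% of all genes), the exception being HEM12.

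HEM15, which inserts the iron, fell most. It had 44.4, 61 and 43.5 CPM in gsh1Δ, against 162, 145 and 154 CPM in WT. Every gsh1Δ library stood below every WT library. The log2 fold change was -1.61 (SE 0.134, edgeR adjusted p = 1.71e-05). HEM13 had 48.7, 43.4 and 52.3 CPM in gsh1Δ, against 125, 101 and 78.4 CPM in WT, and fell by 1.07 on the log2 scale (SE 0.162, edgeR adjusted p = 0.000941).

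Among the early enzymes, HEM3 had 115, 128 and 105 CPM in gsh1Δ, against 225, 213 and 186 CPM in WT, and a log2 fold change of -0.82 (SE 0.109, adjusted p = 0.000412). HEM1 averaged 276 ± 26.3 CPM in gsh1Δ and 442 ± 48.5 CPM in WT (log2 fold change -0.66, SE 0.11, edgeR adjusted p = 0.00165, n = 3 each). HEM2 averaged 206 ± 8.55 and 297 ± 4.37 CPM (-0.52, SE 0.0803, edgeR adjusted p = 0.00114). All 3 stood below every WT library. HEM4 (-0.40, adjusted p = 0.0639, or 0.0236 with all SCEG libraries in 1 fit), HEM14 (-0.30, adjusted p = 0.121) and HEM12 (-0.06, adjusted p = 0.674) did not pass.

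HAP1 moved the other way. It had 708, 603 and 697 CPM in gsh1Δ, against 491, 427 and 450 CPM in WT. The groups did not overlap, and the log2 fold change was 0.57 (SE 0.101, edgeR adjusted p = 0.00248).

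Of the 11 heme-activated genes, those that heme or the Hap complexes raise, 8 were lower in gsh1Δ than in WT and 0 higher (median -0.78), where 12.8% of all genes were lower and 12.5% higher, with CTT1, the cytosolic catalase, falling most (-1.77). Of the 6 heme proteins 4 were lower and 0 higher (median -1.01), led by CTA1 (-1.92). HMX1, whose product degrades heme, had 546 ± 65.8 CPM in gsh1Δ and 27.7 ± 3.96 CPM in WT (SD, n = 3 each), a log2 fold change of 4.32 (edgeR adjusted p = 3.15e-08). In that list of 10 genes 2 were higher and 3 lower, with COX10, which makes heme O, falling most (-0.76). Of the regulators ROX1 was higher (0.84, adjusted p = 0.00103) and HAP4 lower (-0.34, adjusted p = 0.0464). Of the Rox1-repressed genes 3 could be tested and 1, the cyclophilin gene CPR1, was higher (0.55), with 0 lower. ANB1 had too few counts for the test.

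The H3A110C substitution in cells without GSH1 was set against gsh1Δ. HEM15 was higher and HAP1 lower in H3A110Cgsh1Δ, each opposite in sign to its change in gsh1Δ against WT. These 2 of the 9 genes passed, where 0.844% of all genes did (0.264% higher and 0.58% lower). That share was 17.8% without replicate 2 of H3A110Cgsh1Δ, 9.12% with all SCEG libraries in 1 fit, and between 0.0174% and 0.681% without any other 1 library. For 4 of the 9, HEM2 and HEM13 besides, the libraries did not overlap (22% of all genes). All 8 HEM genes had a positive log2 fold change, between 0.03 and 1.20 (median 0.23, against -0.00058 over all genes). This comparison and gsh1Δ against WT share the gsh1Δ libraries, so opposite signs are not independent.

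HEM15 had 137, 88.1 and 122 CPM in H3A110Cgsh1Δ, against 44.4, 61 and 43.5 CPM in gsh1Δ. The lowest H3A110Cgsh1Δ library lay above the highest of gsh1Δ. Its mean was 2.33-fold higher (116 ± 25.1 and 49.7 ± 9.85 CPM, SD, n = 3 each), with a log2 fold change of 1.20 (SE 0.194, edgeR adjusted p = 0.0301). HAP1 had 358, 322 and 378 CPM in H3A110Cgsh1Δ, against 708, 603 and 697 CPM in gsh1Δ. Its mean in H3A110Cgsh1Δ was the lowest of the 8 groups, though the next 2 (WT and H3A110C in SC, 370 and 375 CPM) overlapped with it. The log2 fold change was -0.93 (SE 0.113, edgeR adjusted p = 0.0117). HEM13 had 66.6, 72.8 and 71.3 CPM, against 48.7, 43.4 and 52.3 CPM in gsh1Δ, without overlap. Its log2 fold change of 0.54 (SE 0.115, edgeR adjusted p = 0.0792) did not pass in that fit.

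Both calls rest on few libraries. Neither passed without replicate 1 of gsh1Δ (adjusted p = 0.244 for HEM15 and 0.125 for HAP1), without its replicate 3 (0.196 and 0.0838) or without replicate 3 of H3A110Cgsh1Δ (0.141 and 0.0682), and HEM15 did not without replicate 1 of H3A110Cgsh1Δ (0.0705). Their log2 fold changes stayed at 1.06 or above and at -0.89 or below in these fits. Without replicate 2 of H3A110Cgsh1Δ, the library that stood apart, both passed, and so did HEM13 (0.51, edgeR adjusted p = 0.0126), in a fit where 17.8% of all genes passed. HEM13 also passed by DESeq2 (adjusted p = 0.018).

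Whether the substitution acted differently here than in cells with GSH1 was tested by an interaction term. It passed for HAP1 alone of the 9 (-0.83, SE 0.133, edgeR adjusted p = 0.0238), as it did for 0.365% of all genes (0.139% lower). That share was 5.07% without replicate 2 of H3A110Cgsh1Δ and 0% without replicate 1 of H3A110C or of gsh1Δ. HEM15 was at 1.16 (SE 0.235, adjusted p = 0.056) and HEM13 at 0.77 (SE 0.226, adjusted p = 0.155). HEM15 passed by DESeq2 (adjusted p = 0.00131), with the replicate number as a block (0.034) and with all SCEG libraries in 1 fit (0.0117). HAP1 did not pass without any 1 of 6 of the 12 libraries (replicate 3 of WT, replicates 1 and 2 of H3A110C, 1 and 3 of gsh1Δ and 1 of H3A110Cgsh1Δ, adjusted p between 0.0513 and 0.0812). Of the other listed heme genes, 1 of 6 heme proteins was higher in this interaction, and 0 genes of the other lists passed.

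Set against H3A110C, the strain H3A110Cgsh1Δ had 3 of 9 genes lower and 0 higher (8.62% of all genes passed, 4.03% lower and 4.59% higher), and 6 of 9 did not overlap (28.4%). The share of all genes was 30.6% without replicate 2 of H3A110Cgsh1Δ, 23.3% with all SCEG libraries in 1 fit, and between 2.85% and 5.36% without any other 1 library. The genes that passed were HEM1 (-0.57, adjusted p = 0.01), HEM2 (-0.43, adjusted p = 0.0279) and HEM3 (-0.59, adjusted p = 0.0285). HEM15 averaged 116 ± 25.1 CPM in H3A110Cgsh1Δ and 158 ± 19.8 CPM in H3A110C (SD, n = 3 each), a log2 fold change of -0.47 (SE 0.171, edgeR adjusted p = 0.14). HAP1 was at -0.28 (edgeR adjusted p = 0.118). At most 1 of the 3 passed without any 1 library of H3A110C or without replicate 1 or 3 of H3A110Cgsh1Δ, while HEM15 passed with the replicate number as a block (edgeR adjusted p = 0.0404). Here HMX1 was again the highest of its list (4.08, adjusted p = 1.31e-06), and 0 others of it passed. Of the heme-activated genes 3 were lower, led by CYC1 (-1.11), and 1 higher, HMG1 (0.48). Among the heme proteins 2 were lower, CCP1 falling most (-0.93), and 0 higher.

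In H3A110Cgsh1Δ against gsh1Δ, ROX1 was the 1 gene of the 5 lists to pass, with 365 ± 70.3 CPM in H3A110Cgsh1Δ and 708 ± 59.6 CPM in gsh1Δ (SD, n = 3 each), a log2 fold change of -0.96 (edgeR adjusted p = 0.0294). HAP1 and ROX1 were thus both higher in gsh1Δ than in WT and both lower in H3A110Cgsh1Δ than in gsh1Δ, in comparisons that share the gsh1Δ libraries. The call of ROX1 was not checked with single libraries left out. In cup1F8* against WT, by contrast, HAP1 was higher and ROX1 lower. In H3A110Ccup1F8* against cup1F8*, HAP1 was lower and ROX1 did not pass. A link between HAP1 and ROX1 was not tested. HMX1 had a log2 fold change of -0.49 (adjusted p = 0.102) and HAP4 of 0.15 (adjusted p = 0.6). All 11 heme-activated genes had positive values (median 0.45) and 0 passed in edgeR's test.

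**Figure D3:**
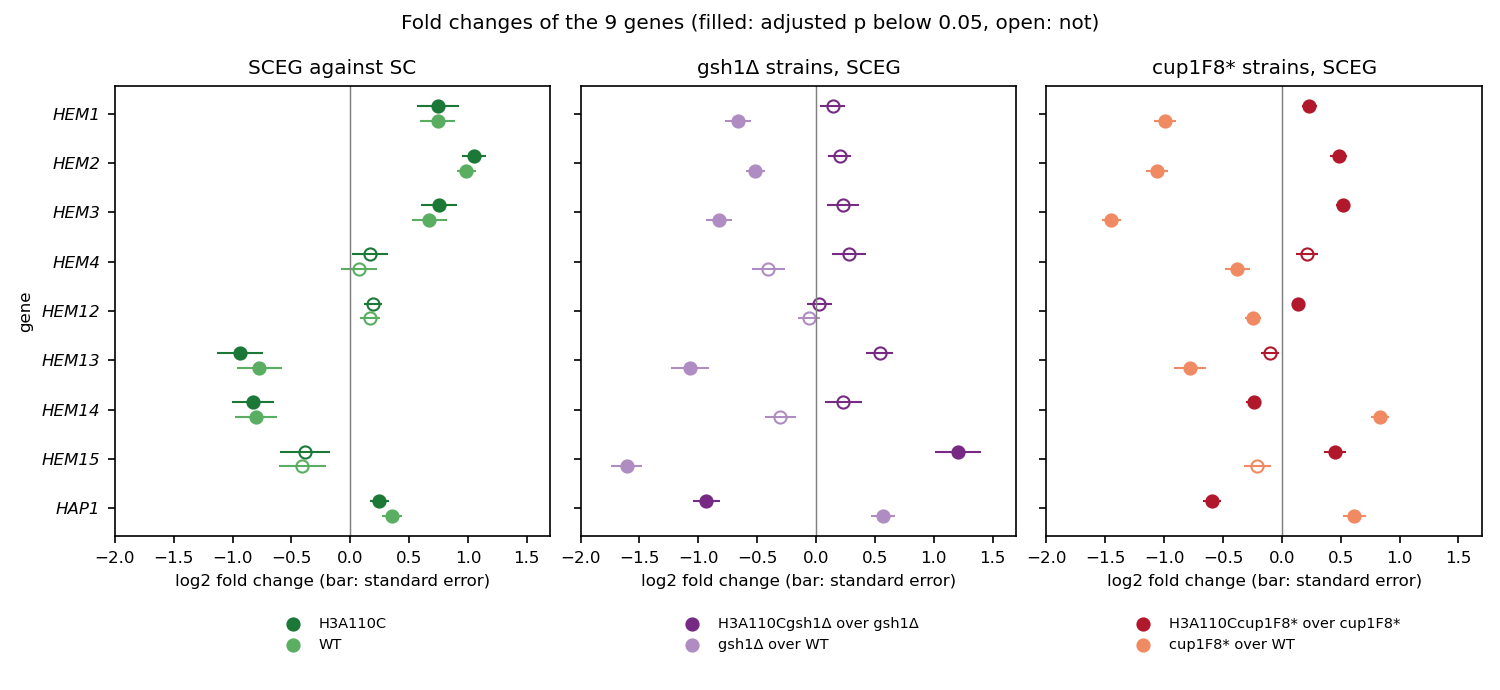
Log2 fold change (x axis, bars give the SE) of the 9 genes (y axis) for SCEG against SC in H3A110C and WT, and for the gsh1Δ and cup1F8* strains in SCEG. Filled points passed at an adjusted p below 0.05. HEM15 lies at -1.61 in gsh1Δ over WT and at 1.20 in H3A110Cgsh1Δ over gsh1Δ, and HAP1 at 0.57 and -0.93.

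The loss of Cup1 was compared next. In cup1F8* against WT, HEM3, HEM2 and HEM1 fell most, HEM14 and HAP1 rose, and 8 of the 9 genes passed (69.1% of all genes), 6 of them lower (34.8%) and 2 higher (34.3%). In 8 of 9 the libraries did not overlap (68.4% of all genes), HEM15 being the exception. With so many genes called, the count by itself says little. Direction and size, like the count, cannot be told apart from the library set. Among the log2 fold changes of all genes tested, HEM3 lay at percentile 4.84, HEM2 at 10.7 and HEM1 at 11.9. HAP1 lay at percentile 82.0 and HEM14 at 88.4.

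HEM3 had 76.0, 84.0, 80.2 and 74.1 CPM in cup1F8*, against 225, 213 and 186 CPM in WT. Every cup1F8* library stood far below the lowest of WT. The log2 fold change was -1.45 (SE 0.0778, edgeR adjusted p = 1.47e-07). HEM2 had 133, 153, 170 and 133 CPM in cup1F8*, against 295, 302 and 295 CPM in WT (-1.06, SE 0.0904, adjusted p = 3.34e-06). HEM1 averaged 229 ± 21.6 CPM in cup1F8* (n = 4) and 442 ± 48.5 CPM in WT (n = 3), a log2 fold change of -0.99 (SE 0.0937, edgeR adjusted p = 7e-06). These enzymes are the first 3 of the pathway.

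Of the later enzymes, HEM13 fell by 0.78 on the log2 scale (SE 0.136, edgeR adjusted p = 0.000511), HEM4 by 0.38 (adjusted p = 0.0098) and HEM12 by 0.25 (adjusted p = 0.00909). With scaling by library totals alone HEM4 and HEM12 no longer passed (-0.22 and -0.09). HEM15 had 120, 162, 148 and 118 CPM in cup1F8*, against 162, 145 and 154 CPM in WT. These overlap, and the log2 fold change of -0.21 (adjusted p = 0.135) did not pass, though it did without replicate 2 of cup1F8* (-0.30, edgeR adjusted p = 0.0276). HEM14, the protoporphyrinogen oxidase, had 71.8, 73.8, 69.3 and 66.4 CPM in cup1F8*, against 35.3, 40.2 and 39.4 CPM in WT, a log2 fold change of 0.83 (SE 0.08, edgeR adjusted p = 7.93e-06). It was the HEM gene that stood higher in cup1F8*. HAP1 had 781, 645, 640 and 818 CPM in cup1F8*, against 491, 427 and 450 CPM in WT, a log2 fold change of 0.62 (SE 0.1, adjusted p = 0.000317).

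Of the other heme genes in cup1F8*, CYC1 fell most among the heme-activated genes (-2.08) and CTT1 rose most (1.55), with 3 of 11 higher and 4 lower. Over all genes 34.3% were higher and 34.8% lower, so these counts are near the background. Of the heme proteins 5 of 6 were lower, CCP1 most (-0.79), and 0 higher. Of the regulators 2 were higher, HAP2 most (0.54), and 3 lower, with HAP3 at -1.12, ROX1 at -0.96 and HAP4 at -0.43. HMX1 was at 1.64 (adjusted p = 4.86e-05), and in its list 3 were higher and 5 lower, MET8, a siroheme synthesis gene, falling most (-1.45). Of 4 Rox1-repressed genes tested, 1 was higher, COX5B (0.84), and 0 lower.

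H3A110Ccup1F8* was set against cup1F8*, within 1 set of libraries. HEM2, HEM3, HEM15, HEM1 and HEM12 were higher and HAP1 and HEM14 lower. Of the 9 genes 7 passed, against 50.5% of all genes, 5 higher (24.6%) and 2 lower (25.9%). For 7 of the 9 the libraries did not overlap (45.7% of all genes). These strains also differed in HHT1, a gene that carries the substitution. It had 448 to 478 CPM in H3A110Ccup1F8* and 910 to 1100 CPM in cup1F8*, against 538 to 624 CPM in WT in SCEG. HHT2 had 1029 to 1103 CPM in H3A110Ccup1F8* and 1103 to 1196 CPM in cup1F8*. What this difference in HHT1 does to the 9 genes was not tested.

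HEM3 had 106, 115, 121 and 121 CPM in H3A110Ccup1F8*, against 76.0, 84.0, 80.2 and 74.1 CPM in cup1F8*, a log2 fold change of 0.52 (SE 0.0601, adjusted p = 2.42e-05). HEM2 had 203, 214, 206 and 218 CPM, against 133, 153, 170 and 133 CPM in cup1F8* (0.48, SE 0.0734, adjusted p = 0.000192). HEM15 had 194, 195, 203 and 176 CPM, against 120, 162, 148 and 118 CPM in cup1F8* (0.45, SE 0.0944, adjusted p = 0.00188). In all 3 the lowest library with the substitution lay above the highest without it.

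HAP1 had 482, 477, 482 and 512 CPM in H3A110Ccup1F8*, against 781, 645, 640 and 818 CPM in cup1F8*, with no overlap and a log2 fold change of -0.59 (SE 0.0771, edgeR adjusted p = 6.21e-05). HEM14 fell by 0.24 (SE 0.0617, adjusted p = 0.00644, or 0.0854 with all SCEG libraries in 1 fit) and HEM1 was at 0.23 (SE 0.0624, adjusted p = 0.00783). HEM12 was at 0.14 (adjusted p = 0.0429), and lost its call with the replicate number as a block (adjusted p = 0.0566) and without any 1 library other than replicates 2 and 3 of cup1F8*. HEM4 (0.21, adjusted p = 0.0681, or 0.0246 without replicate 2 of cup1F8* and 0.0446 without replicate 1 of H3A110Ccup1F8*) and HEM13 (-0.10, adjusted p = 0.296) did not pass.

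The interaction term, which sets this effect of H3A110C against that in cells with CUP1, passed for HEM3 (0.55, SE 0.112, edgeR adjusted p = 0.00418), HEM2 (0.39, SE 0.108, adjusted p = 0.0229) and HAP1 (-0.49, SE 0.119, adjusted p = 0.0106). That is 3 of 9 genes, against 16.2% of all genes (8.36% higher and 7.79% lower), or 9.8% with the replicate number as a block. HEM2 lost its call without replicate 2 of H3A110C (adjusted p = 0.0518). HEM15 (0.41, adjusted p = 0.0833) and HEM14 (-0.32, adjusted p = 0.116) did not pass in that fit. HEM15 passed by DESeq2 (0.0472) and without replicate 3 of H3A110C (0.0425) or replicate 2 of cup1F8* (0.0191), and HEM14 without replicate 2 of H3A110C (0.0334). HAP1 is thus the 1 gene of the 9 whose interaction passed with both gsh1Δ and cup1F8*, and these 2 tests share the H3A110C and WT libraries. Of the 11 heme-activated genes, 6 were higher in the cup1F8* interaction and 0 lower (median 0.45). Of the 6 heme proteins 3 were higher and 1 lower, and of 4 Rox1-repressed genes tested 1 was higher and 0 lower. Among the regulators and the genes of heme use and turnover 0 passed.

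Against H3A110C, H3A110Ccup1F8* had 7 of 9 genes past the test (69% of all genes), 4 lower (33.9%) and 3 higher (35.1%), and 6 did not overlap (68.5%). HEM3 (-0.85), HEM1 (-0.73), HEM2 (-0.62) and HEM13 (-0.59) were lower, and HEM14 (0.56), HEM15 (0.25) and HAP1 (0.17) higher. HAP1 and HEM15 are the calls that did not hold throughout. With all SCEG libraries in 1 fit neither passed (edgeR adjusted p = 0.0611 for HAP1 and 0.0923 for HEM15). HAP1 did not pass with the replicate block (edgeR adjusted p = 0.0979) or without replicate 3 of H3A110C (0.0735). HEM15 did not pass without replicate 1 or 2 of H3A110C or replicate 3 of H3A110Ccup1F8* (0.0884, 0.11 and 0.0535).

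In the same comparison 4 of 11 heme-activated genes were higher and 3 lower, near the 35.1% and 33.9% of all genes, with CTT1 at 3.21 and CYC1 at -1.01. HMX1 rose most in its list (2.25, with 2 higher and 5 lower) and MET8 fell most (-1.58). Of the regulators HAP2 was higher (0.68) and 3 lower, HAP3 most (-0.95), with ROX1 at -0.80 and HAP4 at -0.26. Among heme proteins CTA1 was higher (0.86) and 4 were lower, ERG11 most (-0.99), and of 4 Rox1-repressed genes 2 were higher, HMG2 most (0.84), and 0 lower.

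Of the 11 heme-activated genes, 8 were higher in H3A110Ccup1F8* than in cup1F8* and 1 lower (median 0.44), where 24.6% of all genes were higher and 25.9% lower, YHB1, the flavohemoglobin gene, rising most (1.21) and COX4 falling (-0.28). CYC1 was at 0.95. Of the heme proteins 3 were higher, led by CCP1 (0.66), and 2 lower, led by ERG11 (-0.56). Of the regulators MOT3 passed (-0.62), ROX1 (-0.02) and HAP4 (0.17) did not. HMX1 was at 0.29 (adjusted p = 0.0845), in a list where 3 were higher, COX15 most (0.43), and 3 lower, PUG1 most (-0.97). Of the 4 Rox1-repressed genes tested 1 was higher, HMG2 (0.63), and 2 lower, CPR1 most (-0.25).

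**Figure D4:**
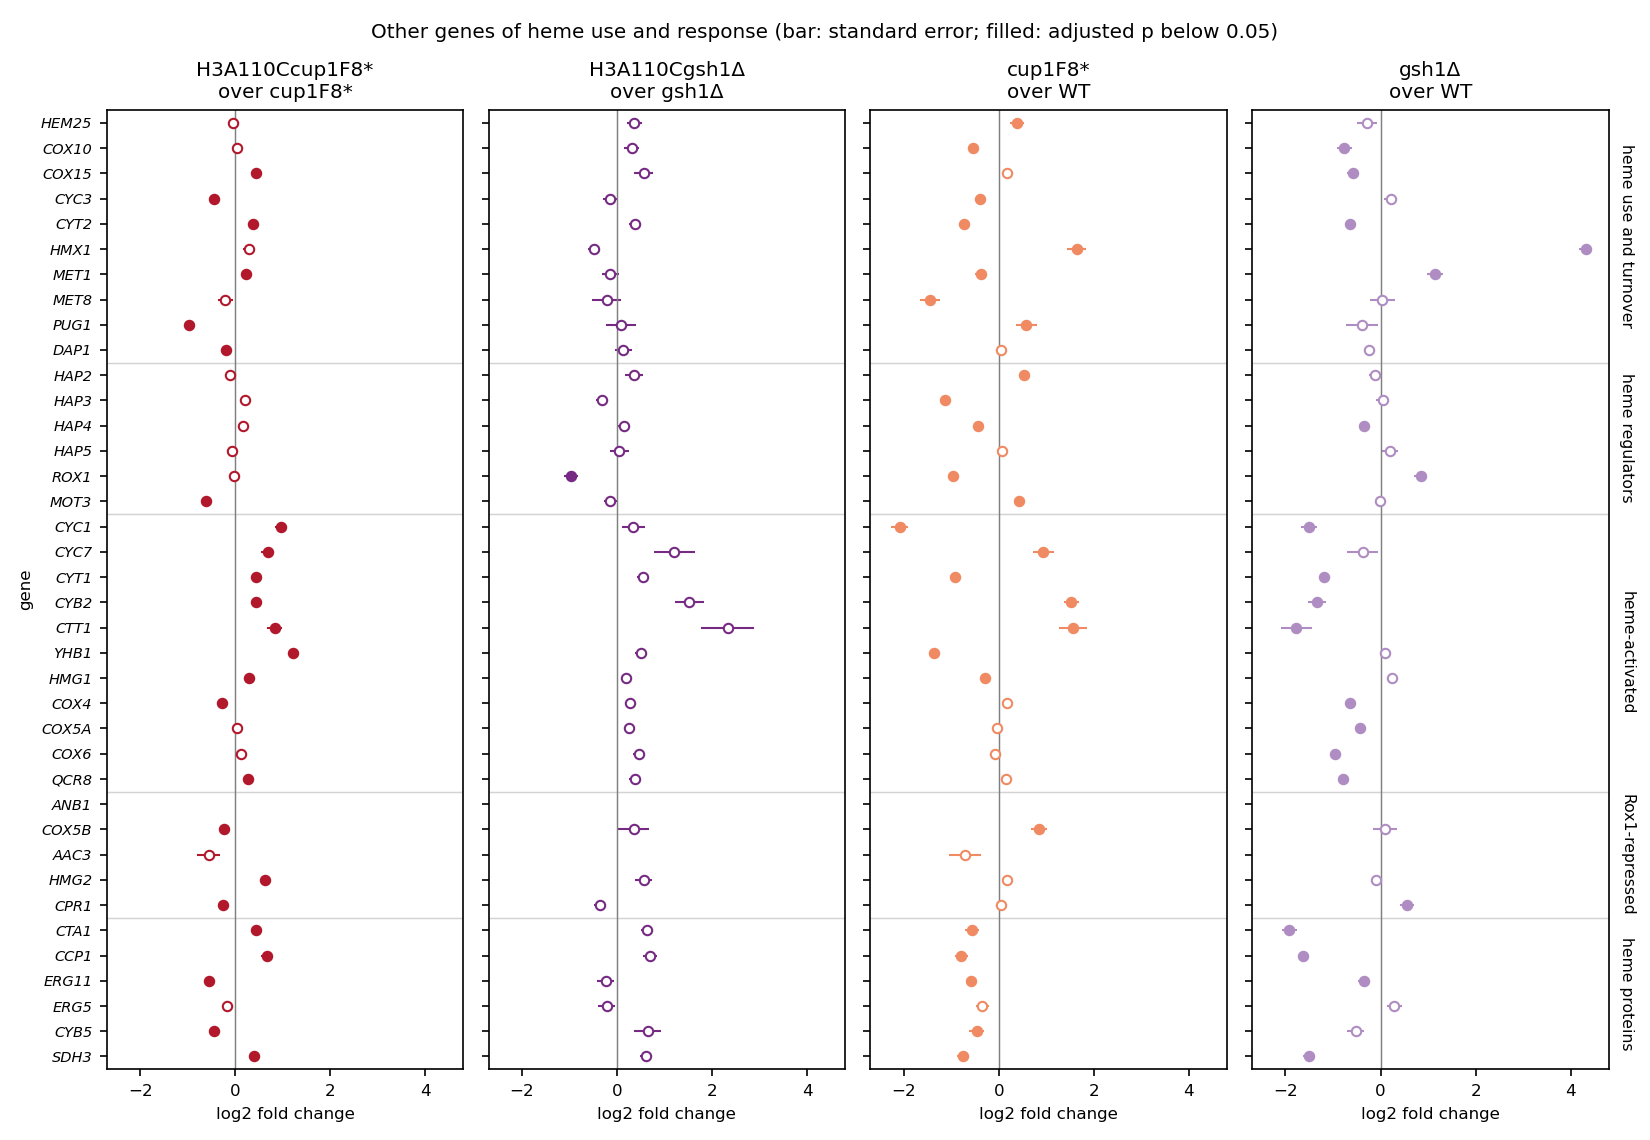
Log2 fold change (x axis, bars give the SE) of the other heme genes in 5 lists (y axis) for H3A110Ccup1F8* over cup1F8*, H3A110Cgsh1Δ over gsh1Δ, cup1F8* over WT and gsh1Δ over WT. Filled points passed at an adjusted p below 0.05, and genes with too few counts have no point. HMX1 lies at 4.32 in gsh1Δ over WT, and ROX1 is the 1 filled point in H3A110Cgsh1Δ over gsh1Δ.

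TIS11, whose protein binds the letters searched above, was read after that search, with its paralog CTH1. It had 468 ± 31.2 CPM in H3A110Cgsh1Δ, 686 ± 52.3 CPM in gsh1Δ and 15.9 ± 9.93 CPM in WT in SCEG (SD, n = 3 each). TIS11 had log2 fold changes of 5.42 in gsh1Δ against WT (SE 0.298, edgeR adjusted p = 7.71e-07) and 3.93 in cup1F8* against WT (SE 0.371, adjusted p = 6.94e-06). With the substitution TIS11 was at -1.24 in H3A110Ccup1F8* against cup1F8* (SE 0.187, edgeR adjusted p = 0.000189) and at -0.56 in H3A110Cgsh1Δ against gsh1Δ (SE 0.107, adjusted p = 0.063). CTH1 had a log2 fold change of 0.36 in gsh1Δ (adjusted p = 0.0877) and of -0.01 in cup1F8* (adjusted p = 0.943) against WT. With the substitution CTH1 was higher in H3A110Ccup1F8* than in cup1F8* (0.49, SE 0.0624, edgeR adjusted p = 5.14e-05), opposite in sign to TIS11, and was at 0.18 in H3A110Cgsh1Δ against gsh1Δ (adjusted p = 0.507).

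Over the genes that are not among the 9, the share lower in gsh1Δ than in WT was 44.9% of 147 genes with 2 or more TATTTAT matches, 21.3% of 731 with 1 and 10.7% of 4646 with none. In cup1F8* these shares were 40.9%, 40.0% and 34.9%. The same classes also differed in other comparisons. In WT in SCEG against SC, 36.0%, 25.0% and 24.1% were higher and 22.7%, 22.6% and 25.8% lower. In H3A110Ccup1F8* against cup1F8*, 43.0%, 30.3% and 23.8% were higher and 20.8%, 23.9% and 26.8% lower. Among the 9, HEM15 and HEM13 with 3 matches fell most in gsh1Δ, HEM12 with 2 was at -0.06 and HAP1 with 1 was higher. In cup1F8* HEM3 with 1 match fell most, HEM15 with 3 did not pass and HEM14 with 1 was higher. The part of these letters in the changes was not tested.

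Over the 20 SCEG libraries, the genes whose log2 CPM were most like those of HEM13 among 5873 genes were OPI3 (r = 0.90), ATP1 (0.90) and INO1 (0.87), and the most opposite were ICY1 (-0.86), TMT1 (-0.86) and LPL1 (-0.85). For HAP1 they were GTB1 (0.89), DSE1 (0.88) and BUR6 (0.84), and MNN2 (-0.89), TDA3 (-0.87) and ARC1 (-0.86). These are Pearson correlations over libraries that share strains and library sets, given as a description.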

How the data were processed

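Stranded poly-A libraries were made from whole cells. Per the labels and methods, the authors aligned the reads with HISAT2 to R64-1-1 (sacCer3), counted them with featureCounts on 6692 open reading frames and deposited unnormalized counts, used here. A table normalized with DESeq2 was not used. Versions are not given in the sources used here. Columns were matched to groups by name. In SC these carry letters, not replicate numbers. Identifiers outside the R64 annotation held 0.119% to 0.463% of counts. The methods name 4 independent experiments while most groups hold 3 libraries. Nothing ties a library to an experiment, so p-values measure the spread between libraries, which may in part be technical.

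Each of 10 pairs of groups was fitted by itself, and 3 interactions over 4 groups, with edgeR 4.0.16 in R 4.3.3 (limma 3.58.1): TMM, default filter, quasi-likelihood F test with non-robust dispersions, Benjamini-Hochberg adjustment over all genes tested, threshold 0.05. The SE is the absolute log2 fold change divided by the root of the F statistic. Floors of 3 counts cover counting error only. The 9 genes and the lists were chosen with earlier results of these data known. Named are the 9 genes, strain checks, and, of each list, the largest called rise and fall, ROX1, HAP4, ANB1 and HMX1. TIS11, CTH1, BUD25 and other names outside this rule were added after their values were seen. In SC the letters pair the libraries (r of 0.623 to 0.886 between strains for the same letter, mean -0.283 for different ones). SCEG replicate numbers did not meet that criterion in any comparison.

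Alternatives were DESeq2 1.42.0, its size factors, library totals, no filter, at least 10 counts in every library, all libraries of the media in 1 fit, a replicate block and each library left out. The letter block and the removal of the B libraries were chosen after seeing the data. On simulated counts for gsh1Δ against WT, 96% of 2-fold changes were recovered over 5661 genes, with 16 false calls. Simulated counts were drawn from the trended dispersion, without a gene's own spread or a library that stands apart. The recovered share may therefore be too high for the real libraries. Sequences came from RefSeq's R64 assembly with Python 3.11.15, numpy 2.4.6, pandas 2.3.3 and matplotlib 3.10.9.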

Additional observations from a re-analysis of the deposited data

Results flagged for a closer look

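HAP1 in H3A110Ccup1F8* had 1 library at 512 CPM, apart from the other 3 (477 to 482 CPM). Of 18 gene and strain combinations with 4 libraries it was the 1 found to have such a gap, and about 1 in 20 would show it by chance.

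The effect of H3A110C differed between cells with and without GSH1 for HAP1 (interaction -0.83 on the log2 scale). Between cells with and without intact CUP1 it differed for HEM2 (0.39), HEM3 (0.55) and HAP1 (-0.49). All 4 passed the edgeR test of the difference itself, at adjusted p-values of 0.0238, 0.0229, 0.00418 and 0.0106. The libraries whose loss ends a call are given above.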

How the results depend on the processing

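The 9 genes gave 49 values that passed over all comparisons. In 696 alternative fits of these, 644 passed in the same direction, 52 no longer passed, and 0 reversed. Of 1050 alternative fits of the 68 other values, 27 passed. The count of genes past the test moved by more than 1.5 times in 3 comparisons. For H3A110Cgsh1Δ against H3A110C it was 3, with 5 when all SCEG libraries entered 1 fit, and between 0 and 3 with single libraries left out. For H3A110Cgsh1Δ against gsh1Δ it was 2, and between 0 and 3 with single libraries left out. For the interaction of H3A110C with gsh1Δ it was 1, with 2 by DESeq2, 3 with all libraries in 1 fit, 2 with the replicate number as a block, and between 0 and 2 with single libraries left out. With the block, the other counts were 0 for H3A110C against WT in each medium (by letter in SC), 6 for gsh1Δ against WT, 2 for H3A110Cgsh1Δ against gsh1Δ, 4 for H3A110Cgsh1Δ against H3A110C, 8 for cup1F8* against WT, 6 for each comparison of H3A110Ccup1F8*, and 3 for the interaction with cup1F8*. No paired analysis was possible between the media because SC carries letters. Scaling by library totals put the median log2 fold change of all genes at 0.204 (WT) and 0.221 (H3A110C) in SCEG against SC, at 0.163 in cup1F8* against WT and at 0.125 in H3A110Ccup1F8* against H3A110C, and HEM12 then passed in both media comparisons (0.37 and 0.40). The causes were not tested. Groups of 3 limit what can be called. Of simulated 2-fold interactions between H3A110C and gsh1Δ, 76% were recovered over 5724 genes, with 13 false calls, under the limits of the simulation given above.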
